A study of Homo sapiens with 6 samples.

Results

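The SLC25 family comprises the carriers of the inner mitochondrial membrane that exchange nucleotides, phosphate, carboxylic acids, amino acids and cofactors between the mitochondrial matrix and the cytosol. Members were taken by symbol alone, as every gene named SLC25A followed by a number, with pseudogenes, antisense and divergent transcripts left out. This gave 41 genes of 17211 in the deposited table. Another 7 family symbols (SLC25A2, SLC25A31, SLC25A41, SLC25A47, SLC25A48, SLC25A52 and SLC25A53) were not listed there. A gene that is not listed may still have had reads, since the sources used here do not give the rule by which genes were kept.

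The RNA came from CAOV2, a culture of human ovarian cancer cells that is labelled both as a cell line and as primary cancer cells. In 3 libraries the cells had received 100 pmol of siRNA against TAZ (siTAZ), and in 3 libraries the same amount of a non-targeting siRNA (siNT). All 6 were exposed to the siRNA and lipid reagent for 2 days, were collected on day 3 and carry no other named alteration. TAZ is the product of WWTR1, a coactivator under Hippo control that acts with TEAD factors. The labels name 1 siRNA product against TAZ and 1 control product from another reagent line, so an effect of the TAZ siRNA outside TAZ and an effect of losing TAZ cannot be told apart. The labels call the libraries biological replicates without saying whether they came from separate cultures, so the p-values rest on a spread among these samples that may be technical.

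Carriers of this family share a fold built from a repeated domain, and most are inserted into the inner membrane by the TIM22 translocase after passing the outer membrane. They set how oxidative phosphorylation is supplied with ADP and phosphate, how reducing equivalents and citrate reach the cytosol, and how mitochondria obtain iron, glutathione, coenzyme A, NAD and folate. A few members sit elsewhere: SLC25A17 is a carrier of peroxisomes and SLC25A46 lies in the outer mitochondrial membrane.

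Reads in genes numbered 28458503 to 34488196 per library in siTAZ and 25478595 to 28928432 in siNT. WWTR1 was at 242, 277 and 280 in the siTAZ libraries and at 4359, 4217 and 4259 in the siNT libraries. Levels here are deposited values, which are reads divided by the size factor of the library, and are given as mean ± SD with n = 3 in each group. All 6 epithelial markers were listed and all were called, 4 higher and 2 lower. EPCAM had 1361 ± 42 in siTAZ and 501 ± 10.4 in siNT, CDH1 579 ± 15 in siTAZ and 256 ± 15.7 in siNT, and KRT7 8604 ± 879 in siTAZ and 22850 ± 1266 in siNT. KRT19 and KRT8 rose by 0.67 and 0.16 and KRT18 fell by 0.30 on the log2 scale. The summed epithelial level, set mainly by the keratins, was 92340 to 100600 in siTAZ and 96330 to 104700 in siNT. Markers of Müllerian and ovarian carcinoma cells were scarce, with PAX8, MUC16 and FOLR1 summing to 38.4 to 44.7 in siTAZ and 34.6 to 63.1 in siNT, while WT1, ESR1 and SOX17 were not listed. Of these, FOLR1 was called higher, at 16.2 ± 1.27 in siTAZ and 5.90 ± 0.60 in siNT, and PAX8 and MUC16 did not pass. The fibroblast list summed to 5316 to 6039 in siTAZ and 5029 to 5730 in siNT, with LUM and PDGFRA as its main members and DCN not listed. Its members differed in direction. PDGFRA and PDGFRB rose by 0.44 and 1.76 on the log2 scale, LUM and COL1A1 did not pass, and COL1A2 fell by 2.71. PDGFRB and COL1A2 were low, at 34.2 ± 4.97 and 1.31 ± 1.14 in siTAZ and 10.1 ± 4.70 and 12.6 ± 2.69 in siNT. Of 5 leukocyte markers, CD14 and LYZ were listed, summing to 223 to 260 in siTAZ and 76.4 to 89.8 in siNT, while PTPRC and CD3E were not. Endothelial, erythroid and brown fat or muscle markers, UCP1 among them, were not listed. The part of these marker differences in the results below was not tested.

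All 41 carriers had a mean of at least 1 and were tested. By limma over all genes, at an adjusted p under 0.05, 10 carriers were higher in siTAZ, 16 were lower and 15 did not pass. For comparison, 55.8% of all 17204 genes tested were called, 28.3% as higher and 27.5% as lower. Where the mean was 200 or more, as in 38 of the 41 carriers, 66.5% of genes were called, 32% as higher and 34.5% as lower. The carriers' share called, 63.4%, was near that background, as 24.4% were called higher and 39% lower, so the number of calls is not a result about the family. Their log2 fold changes ran from -0.61 to 1.0 with a median of -0.04, against a median of -0.001 over all genes. The median absolute log2 fold change was 0.23 for the carriers and 0.24 for the genes at that level. The libraries of the groups did not overlap in 28 of the 41 carriers, against 61.4% of all genes tested. Only SLC25A27 reached 2-fold, and 5 carriers were called with an absolute log2 fold change of at least 0.5 and a mean of at least 10, a rule met by 23.9% of all genes tested. In bulk RNA, fewer cells with a transcript and less of it per cell cannot be told apart.

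**Figure D1:**
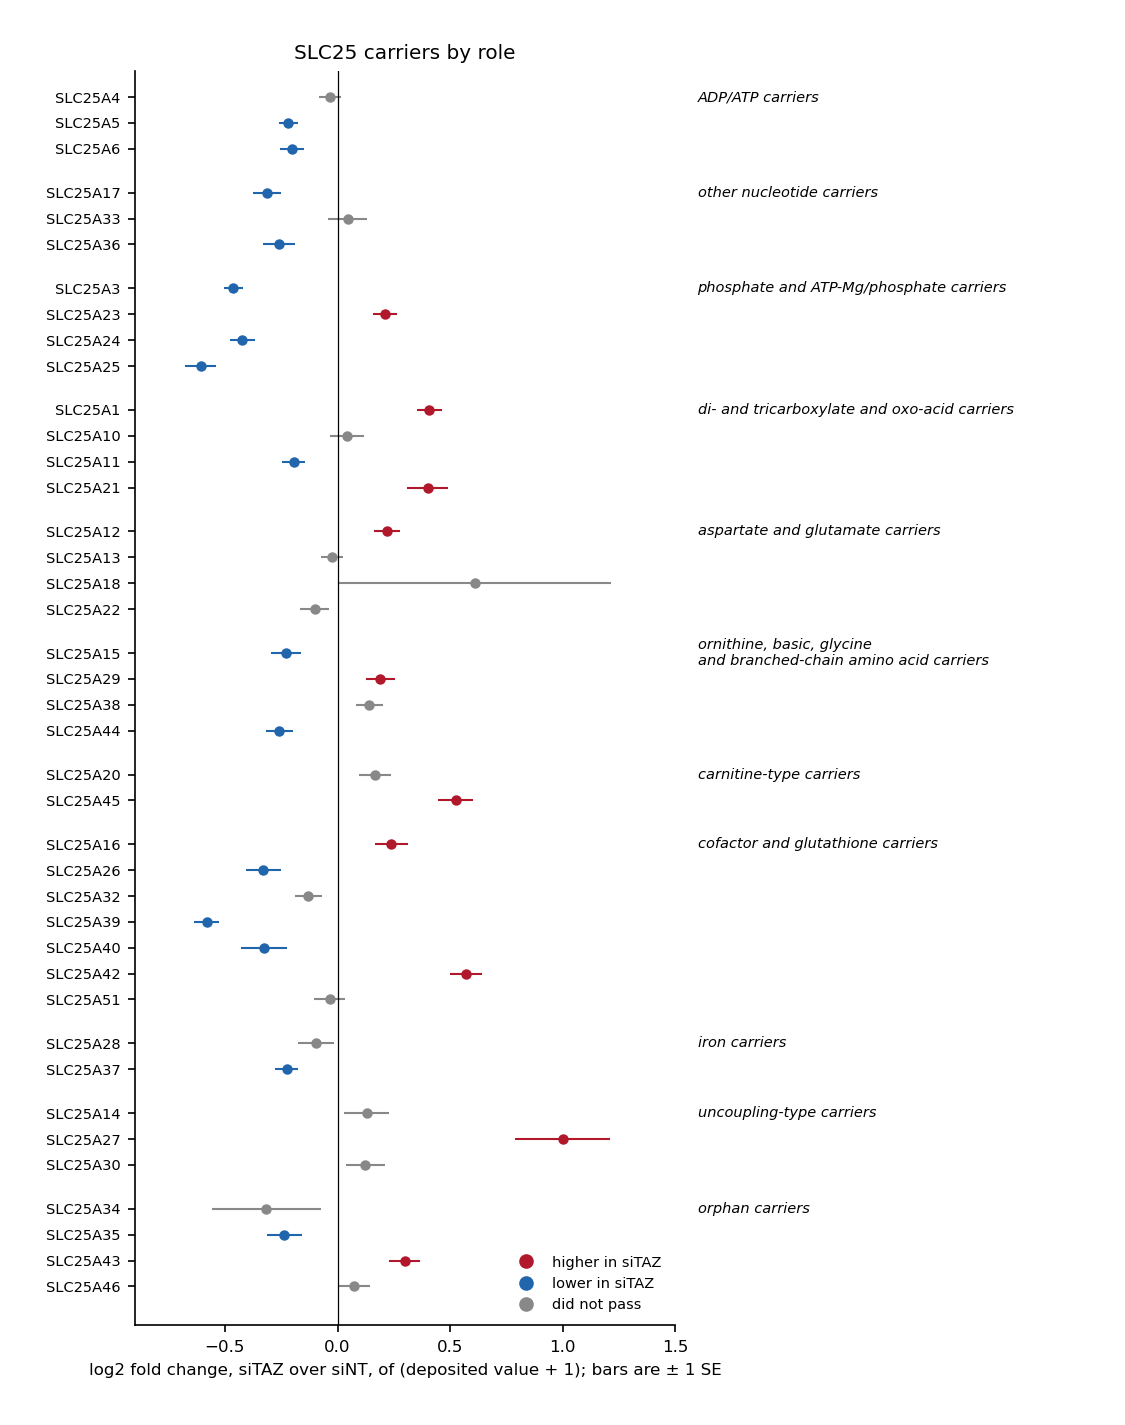
Each point is the log2 fold change of 1 carrier, for 40 of the 41, siTAZ over siNT, taken after adding 1 to each deposited value, with a bar of 1 SE either side, from 3 libraries per group. Red carriers were called higher (10), blue lower (15 of the 16) and grey did not pass (15). The phosphate carrier group holds 3 falls beside the rise of SLC25A23, and SLC25A27 lies farthest to the right at 1.0.

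The most abundant carriers fell, all by less than 1.5-fold. SLC25A3, the phosphate carrier that supplies ATP synthase with inorganic phosphate, had 15242, 14789 and 15076 in the siTAZ libraries, against 21050, 20561 and 20606 in the siNT libraries. Every siTAZ library lay below every siNT library (log2 fold change -0.46, SE 0.04, limma adjusted p = 7.6e-08). Of the ADP/ATP carriers, which export ATP in exchange for ADP, SLC25A5 is the form of proliferating cells, SLC25A6 is widely expressed and SLC25A4 is the form of heart and muscle. SLC25A5 had 9427, 9110 and 9314 in siTAZ and 10581, 10814 and 10995 in siNT (log2 fold change -0.22, SE 0.04, limma adjusted p = 0.00035). SLC25A6 had 10374, 9428 and 9589 in siTAZ and 10507, 11702 and 11597 in siNT (log2 fold change -0.20, SE 0.05, limma adjusted p = 0.0035). In both genes the groups did not overlap, although siTAZ replicate 1 and siNT replicate 1 of SLC25A6 lay close together. SLC25A4 did not pass, at 1912 ± 48.5 in siTAZ and 1957 ± 42.9 in siNT (log2 fold change -0.03, SE 0.05, limma adjusted p = 0.59). SLC25A3, SLC25A5 and SLC25A6 have processed copies elsewhere in the genome and SLC25A6 lies in a pseudoautosomal region, so part of their reads may have been lost or assigned to copies.

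Per kilobase of transcript, SLC25A3, SLC25A5 and SLC25A6 ranked 1, 2 and 3 of the 41 carriers in both groups. Their levels were 8960, 7287 and 4751 per kilobase in siTAZ and 12360, 8475 and 5465 per kilobase in siNT. SLC25A39 ranked 4 in both groups, at 2272 per kilobase in siTAZ and 3400 in siNT. At the other end, SLC25A18, SLC25A27 and SLC25A34 had 2.27, 13.9 and 7.47 per kilobase in siTAZ and 1.37, 6.80 and 9.40 in siNT. Among the 3 ADP/ATP carriers, SLC25A5 made up 58.5% ± 0.84 of the level per kilobase in siTAZ and 59.0% ± 0.95 in siNT, and SLC25A4 made up 3.45% ± 0.02 in siTAZ and 3.07% ± 0.15 in siNT.

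The 41 carriers together took 0.268%, 0.262% and 0.266% of the reads in genes in the siTAZ libraries and 0.293%, 0.296% and 0.295% in the siNT libraries. Their summed value was 78020 ± 1355 in siTAZ and 89950 ± 996 in siNT. SLC25A3 alone made up 19.3% ± 0.05 of that sum in siTAZ and 23.1% ± 0.56 in siNT. Without SLC25A3, SLC25A5 and SLC25A6, the sum was 43900 ± 531 in siTAZ and 47150 ± 417 in siNT. In each of these quantities the groups did not overlap, and the two-sided exact permutation p was 0.10, the smallest that 3 against 3 libraries allow (0.15 adjusted over 12 quantities).

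**Figure D2:**
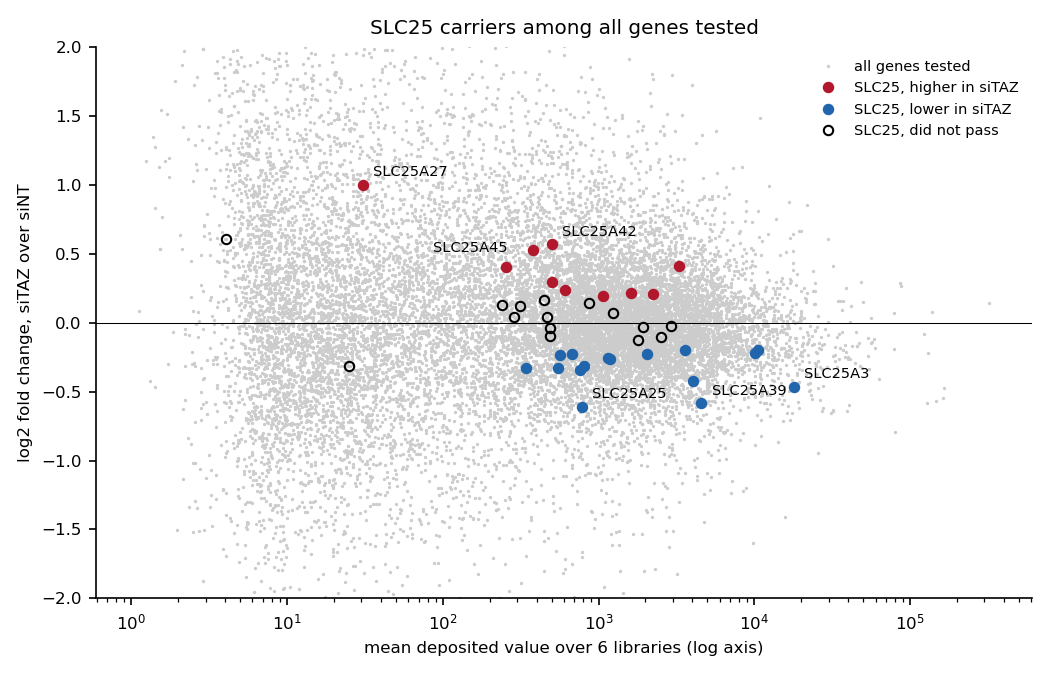
The horizontal log axis is the mean deposited value over the 6 libraries and the vertical axis the log2 fold change, siTAZ over siNT. Grey dots are all 17204 genes tested, of which 325 lie outside the plotted range of 2 either way. Filled points are carriers called higher (red, 10) or lower (blue, 16) and open circles the 15 that did not pass. The 3 carriers with the highest means all lie below 0, and SLC25A27 is a high point at a low level.

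The calcium-regulated ATP-Mg/phosphate carriers, which adjust the adenine nucleotide pool of the matrix, moved in opposite directions. SLC25A25 had 651, 620 and 575 in siTAZ and 891, 918 and 1008 in siNT, a 1.53-fold fall (log2 fold change -0.61, SE 0.07, limma adjusted p = 1.1e-06). SLC25A24 had 3199, 3564 and 3525 in siTAZ and 4889, 4339 and 4570 in siNT (log2 fold change -0.42, SE 0.06, limma adjusted p = 5.8e-06). In contrast, SLC25A23 had 2475, 2335 and 2373 in siTAZ and 1990, 2183 and 2040 in siNT (log2 fold change 0.21, SE 0.05, limma adjusted p = 0.0025). None of the 3 genes had overlapping groups. The log2 ratio of SLC25A24 over SLC25A23 was 0.37, 0.61 and 0.57 in the siTAZ libraries and 1.30, 0.99 and 1.16 in the siNT libraries, so SLC25A24 stayed above SLC25A23 in every library with a smaller margin in siTAZ (two-sided exact permutation p = 0.10, the smallest possible). SLC25A25-AS1, which overlaps SLC25A25 on the opposite strand, also fell, to 198 ± 16.3 in siTAZ against 298 ± 34.8 in siNT. Whether the counting used strand is not stated. Reads of overlapping genes on opposite strands may therefore be mixed. Genes listed in the deposited table overlap 12 carriers in this way, among them SLC25A5, SLC25A12, SLC25A24, SLC25A26, SLC25A30 and SLC25A32. Further carriers, SLC25A18, SLC25A22, SLC25A34 and SLC25A45, overlap only opposite-strand genes that are not listed, whose reads are unknown. SLC25A29 and SLC25A51 overlap unlisted genes on both strands. SLC25A3, SLC25A10 and SLC25A32 each overlap an unlisted gene on the same strand, which counting by strand would not separate. With the value of SLC25A25-AS1 added, the log2 fold change of SLC25A25 was -0.60. As both genes fell by similar amounts, this sum could hardly differ and cannot show whether reads were mixed. NAIF1, which also overlaps SLC25A25 on the opposite strand, was not added. It did not pass, at 486.5 ± 44.7 in siTAZ and 518.3 ± 36.5 in siNT (log2 fold change -0.09, limma adjusted p = 0.35).

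The glutathione carriers fell. SLC25A39, which imports glutathione into mitochondria and is regulated by its level, had 3936, 3541 and 3477 in siTAZ and 5111, 5700 and 5579 in siNT, a 1.5-fold fall (log2 fold change -0.58, SE 0.06, limma adjusted p = 1.6e-07). The groups were well apart. Its paralogue SLC25A40 had 484 ± 61.2 in siTAZ and 607 ± 84.7 in siNT (log2 fold change -0.33, SE 0.10, limma adjusted p = 0.011). That call was lost without siNT replicate 1 (limma adjusted p = 0.060, range over alternatives 0.0051 to 0.060). SLC25A40 shares exonic sequence with DBF4 on the opposite strand.

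The largest called rises were in less abundant carriers. SLC25A42, which carries coenzyme A, had 628, 567 and 601 in siTAZ and 410, 393 and 404 in siNT, a 1.49-fold rise (log2 fold change 0.57, SE 0.07, limma adjusted p = 2.9e-06). SLC25A45, of the carnitine-type branch, had 447, 445 and 444 in siTAZ and 288, 322 and 318 in siNT (log2 fold change 0.53, SE 0.08, limma adjusted p = 2.0e-05). SLC25A27, also called UCP4 and best known from brain, had 40.5, 45 and 38.4 in siTAZ and 20.9, 21.4 and 18.1 in siNT, a 2.05-fold rise (log2 fold change 1.0, SE 0.21, limma adjusted p = 0.00061). The siTAZ libraries lay above the siNT libraries in all 3 genes. SLC25A27 rested on 39, 49 and 45 reads in siTAZ and 20, 20 and 15 reads in siNT, and its log2 fold change ran from 0.77 to 1.05 over the alternatives, lowest with a pseudocount of 10.

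**Figure D3:**
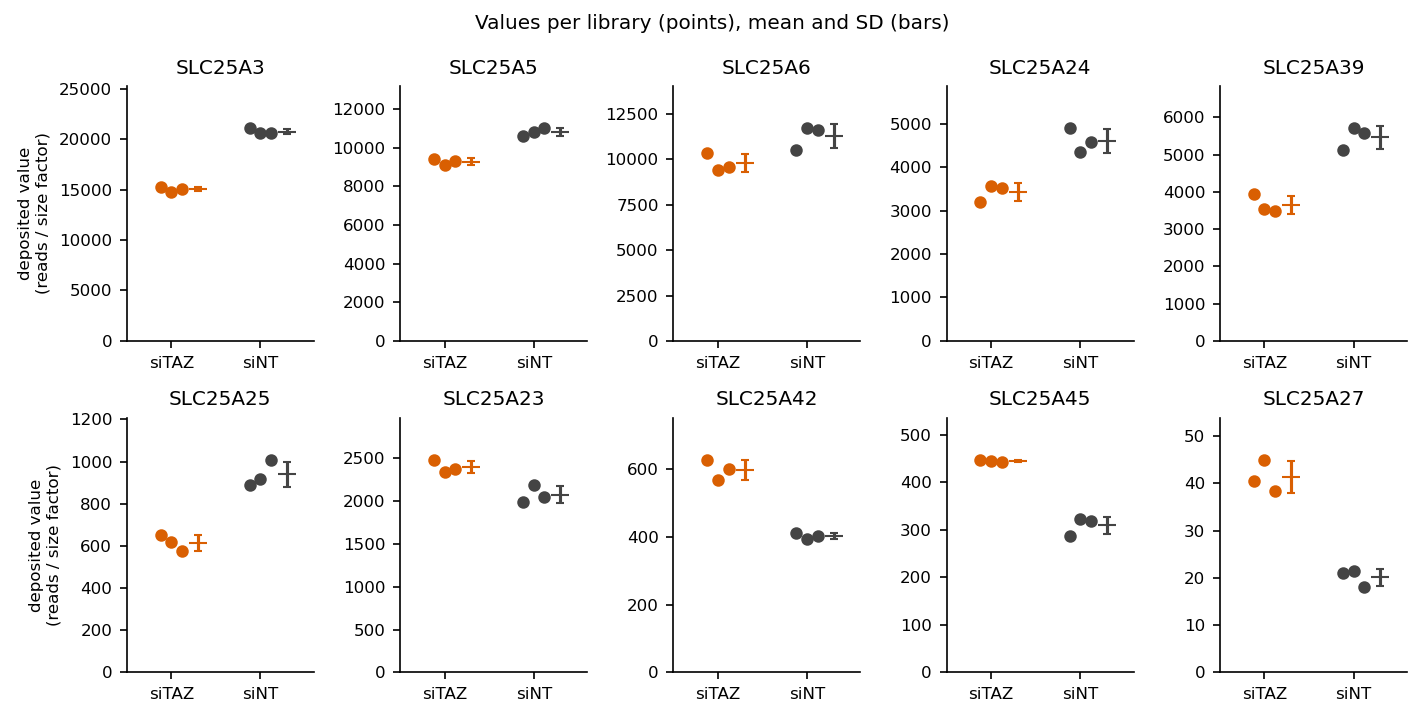
Each panel shows 1 carrier, with the deposited value of each siTAZ library (orange) and siNT library (dark grey) as points and the group mean ± SD (n = 3) to the right. All axes start at 0. In none of the 10 panels do the groups overlap, with 6 falls from SLC25A3 to SLC25A25 and 4 rises from SLC25A23 to SLC25A27.

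Only 5 carriers were called with an absolute log2 fold change of at least 0.5 and a mean of at least 10. The sequences just upstream of them are shown because these genes carry the largest called changes of the family. They are the 250 bases before the RefSeq start on GRCh38.p14, read 5′ to 3′ on the gene's strand, and the deposited data were made on hg19. Capitals mark matches to 5 motifs searched on both strands: GGAATG (TEAD), GCGCA and GCGC with any base between them (NRF1), CCGGAAG (ETS), CACGTG (E-box) and CCAAT.
SLC25A27 (chr6:46652725-46652974, plus strand): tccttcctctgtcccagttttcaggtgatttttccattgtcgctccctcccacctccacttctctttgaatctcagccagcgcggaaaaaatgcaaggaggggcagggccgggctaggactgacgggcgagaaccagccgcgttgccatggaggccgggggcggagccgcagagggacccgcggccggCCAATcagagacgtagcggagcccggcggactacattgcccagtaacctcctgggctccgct
SLC25A42 (chr19:19063744-19063993, plus strand): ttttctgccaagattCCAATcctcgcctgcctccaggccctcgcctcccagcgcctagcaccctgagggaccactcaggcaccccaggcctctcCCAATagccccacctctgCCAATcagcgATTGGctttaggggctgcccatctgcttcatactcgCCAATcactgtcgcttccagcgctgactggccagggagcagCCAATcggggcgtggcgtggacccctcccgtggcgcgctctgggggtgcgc
SLC25A45 (chr11:65382647-65382896, minus strand): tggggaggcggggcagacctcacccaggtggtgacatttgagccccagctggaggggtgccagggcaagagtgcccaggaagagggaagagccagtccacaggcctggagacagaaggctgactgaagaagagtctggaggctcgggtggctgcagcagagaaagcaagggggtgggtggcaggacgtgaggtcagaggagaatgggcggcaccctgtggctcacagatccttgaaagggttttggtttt
SLC25A25 (chr9:128098257-128098506, plus strand): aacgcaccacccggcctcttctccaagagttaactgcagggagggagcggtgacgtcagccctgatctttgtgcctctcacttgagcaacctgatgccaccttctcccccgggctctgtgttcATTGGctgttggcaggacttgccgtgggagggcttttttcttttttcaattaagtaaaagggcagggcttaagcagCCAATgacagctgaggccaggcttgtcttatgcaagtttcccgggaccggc
SLC25A39 (chr17:44324824-44325073, minus strand): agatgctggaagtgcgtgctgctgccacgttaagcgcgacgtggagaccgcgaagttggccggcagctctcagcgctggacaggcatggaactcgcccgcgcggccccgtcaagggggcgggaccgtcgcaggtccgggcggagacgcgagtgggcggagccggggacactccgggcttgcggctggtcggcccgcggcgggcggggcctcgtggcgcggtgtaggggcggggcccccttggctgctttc
Only CCAAT was matched in these windows, and no matches overlap. SLC25A42 has 6 matches, the nearest at -51 to -47 from the start, SLC25A25 has 2, at -127 to -123 and -51 to -47, and SLC25A27 has 1, at -62 to -58. SLC25A45 and SLC25A39 have none of the 5 motifs in the window. CCAAT occurs in 33% of 27305 promoter windows of this length and in 17 of the 35 carriers that have one in the table. It was in 6 of 9 windows of carriers called higher, 6 of 13 called lower and 5 of 13 that did not pass. The TEAD motif was in 11.9% of all windows and in 2 of the 35, of which 1 was called higher and 0 lower. The ETS motif was in 8.82% of all windows and in 7 of the 35, the E-box in 6.49% and 6, and the NRF1 motif in 5.53% and 2. These matches are letters in a window and were not measured as binding.

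Carriers of citrate and related acids did not move together. SLC25A1, which exports citrate for fatty acid and sterol synthesis, had 3861, 3591 and 3729 in siTAZ and 2620, 3021 and 2798 in siNT, a 1.33-fold rise without overlap (log2 fold change 0.41, SE 0.06, limma adjusted p = 8.2e-06). SLC25A11, the oxoglutarate/malate carrier of the malate-aspartate shuttle, fell to 3368 ± 144 in siTAZ, against 3854 ± 167 in siNT (log2 fold change -0.19, limma adjusted p = 0.0036). It overlaps RNF167 on the opposite strand, which fell as well (log2 fold change -0.28). SLC25A10, the dicarboxylate carrier, did not pass, at 477 ± 34.1 in siTAZ and 463 ± 13.6 in siNT. SLC25A21, which carries oxoadipate from lysine breakdown, had 292 ± 22.5 in siTAZ and 220 ± 8.48 in siNT (log2 fold change 0.40, limma adjusted p = 0.0012). It overlaps PAX9, which rose by 0.51, and SLC25A21-AS1, which fell by 0.60, both on the log2 scale. With the value of SLC25A21-AS1 added, and that of PAX9 not, SLC25A21 no longer passed (log2 fold change 0.19, limma adjusted p = 0.062, range over alternatives 0.00047 to 0.062). Because SLC25A21-AS1 fell, this sum had to lessen the rise, so it cannot show whether reads were mixed.

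The aspartate/glutamate carriers provide the matrix exit of aspartate in the malate-aspartate shuttle. SLC25A12, the form of brain and muscle, rose to 1729 ± 33.3 in siTAZ, against 1487 ± 98.3 in siNT (log2 fold change 0.22, limma adjusted p = 0.0037). SLC25A13, the form best known from liver, did not pass, at 2914 ± 103 in siTAZ and 2962 ± 41.2 in siNT (log2 fold change -0.02, limma adjusted p = 0.69). Their log2 ratio, SLC25A12 over SLC25A13, was -0.76, -0.72 and -0.78 in siTAZ and -0.97, -0.92 and -1.10 in siNT, without overlap (two-sided exact permutation p = 0.10). The glutamate carrier SLC25A22 did not pass, at 2412 ± 184 in siTAZ and 2587 ± 209 in siNT (limma adjusted p = 0.20), but was called lower without siTAZ replicate 1 (limma adjusted p = 0.022) and without siNT replicate 1 (limma adjusted p = 0.032, range over alternatives 0.022 to 0.61). Its paralogue SLC25A18 was near the floor, with 3, 3 and 11 reads in siTAZ and 2, 1 and 5 reads in siNT. It did not pass (log2 fold change 0.61, SE 0.60, limma adjusted p = 0.41).

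Among the amino acid carriers, SLC25A15, which exchanges ornithine and citrulline, fell to 622 ± 32 in siTAZ, against 728 ± 26.8 in siNT (log2 fold change -0.23, limma adjusted p = 0.0077, 0.058 without siTAZ replicate 2). SLC25A44, a branched-chain amino acid carrier, fell to 1050 ± 57.8 in siTAZ, against 1255 ± 41.8 in siNT (log2 fold change -0.26, limma adjusted p = 0.0013). SLC25A29, which carries basic amino acids, was called higher at 1138 ± 71.4 in siTAZ and 997 ± 47.8 in siNT (log2 fold change 0.19, limma adjusted p = 0.017). That call, inside the threshold of 0.05, was lost with the replicate block (limma adjusted p = 0.051) and without siTAZ replicate 1 (0.051), siTAZ replicate 2 (0.060) or siNT replicate 1 (0.059). SLC25A38, the glycine carrier that feeds heme synthesis, lay just outside the threshold, at 914 ± 36.5 in siTAZ and 828 ± 5.37 in siNT (log2 fold change 0.14, limma adjusted p = 0.053). It was called higher by 5 alternatives, namely the CPM filter, TMM scaling, total count scaling, voom and without siTAZ replicate 1, over an adjusted p range of 0.011 to 0.21. The carnitine/acylcarnitine carrier SLC25A20 was also outside it, at 471 ± 9.36 in siTAZ and 420 ± 21.9 in siNT (limma adjusted p = 0.062, and 0.016 under total count scaling).

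The other nucleotide carriers described here fell or did not pass. SLC25A17 of peroxisomes fell to 719 ± 26 in siTAZ, against 895 ± 33.1 in siNT (log2 fold change -0.32, limma adjusted p = 0.00035). Of the pyrimidine nucleotide carriers, SLC25A36 fell to 1075 ± 75.3 in siTAZ, against 1290 ± 128 in siNT (limma adjusted p = 0.0058), and SLC25A33 did not pass, at 291 ± 10.0 in siTAZ and 282 ± 20.1 in siNT. The log2 ratio of SLC25A33 over SLC25A36 was -1.88 ± 0.05 in siTAZ and -2.19 ± 0.19 in siNT (two-sided exact permutation p = 0.10).

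The remaining cofactor carriers were divided. SLC25A26, which imports S-adenosylmethionine, fell to 304 ± 8.43 in siTAZ, against 383 ± 16.7 in siNT (log2 fold change -0.33, limma adjusted p = 0.0018). SLC25A16, linked to coenzyme A supply, rose to 663 ± 28.3 in siTAZ, against 563 ± 45.9 in siNT (log2 fold change 0.24, limma adjusted p = 0.011, 0.074 without siNT replicate 3). The folate and FAD carrier SLC25A32 had 1722 ± 53 in siTAZ and 1886 ± 149 in siNT and did not pass (limma adjusted p = 0.078, and 0.017 without siNT replicate 2). SLC25A51, the NAD carrier, did not pass either, at 478 ± 7.73 in siTAZ and 490 ± 11.5 in siNT (log2 fold change -0.04, SE 0.07).

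Of the mitoferrins, which bring iron into mitochondria, SLC25A37 fell to 1881 ± 23.5 in siTAZ, against 2202 ± 105 in siNT (log2 fold change -0.23, limma adjusted p = 0.0013), and SLC25A28 did not pass, at 470 ± 45.7 in siTAZ and 501 ± 23.5 in siNT. Their log2 ratio, SLC25A37 over SLC25A28, was 2.00 ± 0.13 in siTAZ and 2.13 ± 0.01 in siNT, with overlapping groups. Beside SLC25A27, the uncoupling-type carriers SLC25A14 and SLC25A30 did not pass (log2 fold changes 0.13 and 0.12, SE 0.10 and 0.08). Of the carriers without an established substrate, SLC25A43 rose to 556 ± 25.7 in siTAZ, against 452 ± 7.98 in siNT (log2 fold change 0.30, limma adjusted p = 0.0015), and SLC25A35 was called lower, at 516 ± 26.2 in siTAZ and 609 ± 53.1 in siNT (log2 fold change -0.24, limma adjusted p = 0.015). It overlaps RANGRF on the opposite strand, which fell by 0.60 on the log2 scale, and its call was lost under total count scaling (limma adjusted p = 0.052) and without siTAZ replicate 3 (0.063), siNT replicate 2 (0.079) or siNT replicate 3 (0.061). SLC25A34 and SLC25A46 did not pass (log2 fold changes -0.32 and 0.07, SE 0.24 and 0.07), with SLC25A46 called higher without siTAZ replicate 1 (limma adjusted p = 0.049).

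Of 13 paralogue ratios that could be computed, 6 did not overlap between the groups, and each of these reached the smallest two-sided exact permutation p of 0.10 (0.22 adjusted over the 13). Of single genes, 61.4% of all tested did not overlap, so the count of 6 is not read as a result about the carriers. Beside the 3 described above they were SLC25A4 over SLC25A5, SLC25A10 over SLC25A11 and SLC25A16 over SLC25A42. The log2 ratio of SLC25A4 over SLC25A5 was -2.26, -2.29 and -2.29 in siTAZ and -2.41, -2.45 and -2.53 in siNT. That of SLC25A10 over SLC25A11 was -2.82 ± 0.10 in siTAZ and -3.06 ± 0.03 in siNT, and that of SLC25A16 over SLC25A42 was 0.15 ± 0.07 in siTAZ and 0.48 ± 0.11 in siNT. By contrast, SLC25A6 over SLC25A5 was 0.08 ± 0.05 in siTAZ and 0.06 ± 0.06 in siNT, with overlapping groups.

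**Figure D4:**
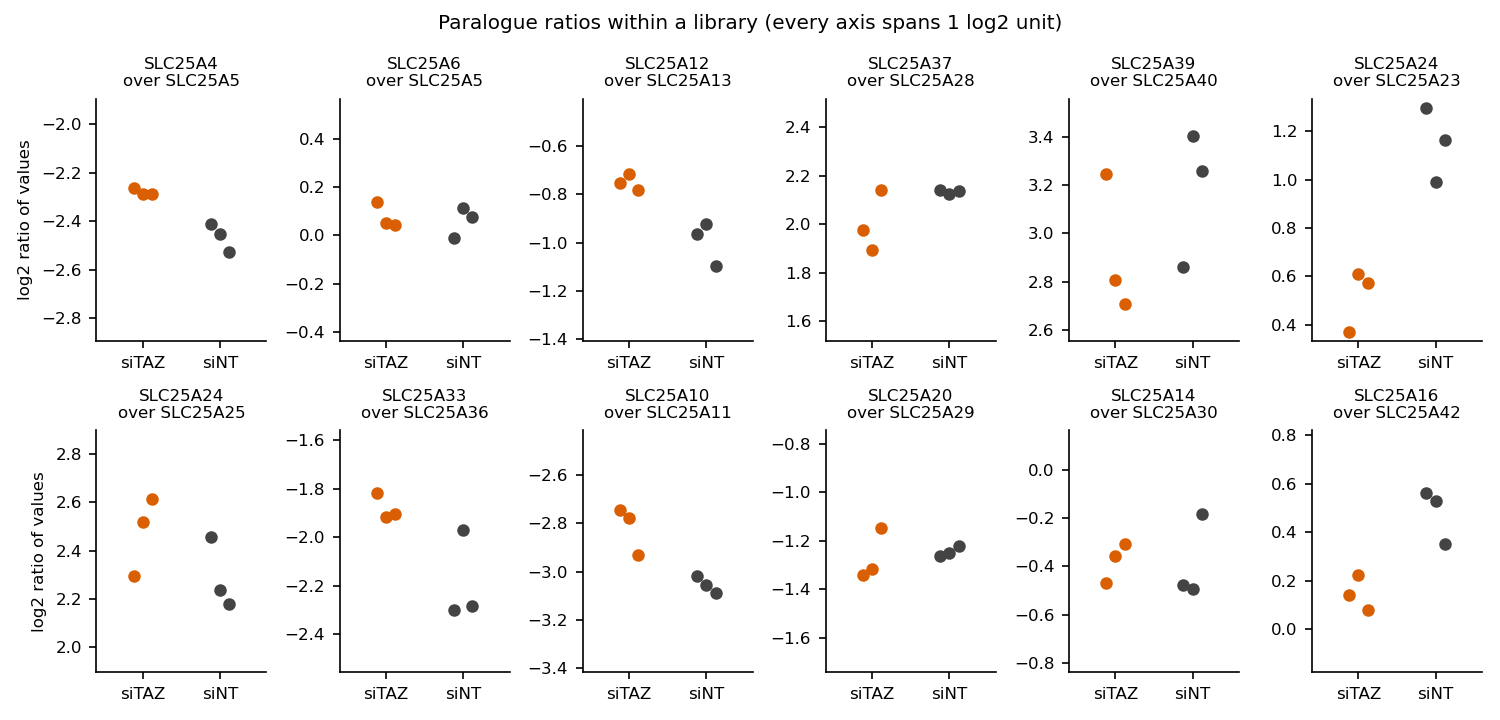
Each panel shows the log2 ratio of the deposited values of 2 carriers within each library, siTAZ in orange and siNT in dark grey, and every vertical axis spans 1 log2 unit. SLC25A18 over SLC25A22 is left out because SLC25A18 had few reads. The groups part in 6 panels, with the widest gap in SLC25A24 over SLC25A23, at 0.52 ± 0.13 in siTAZ and 1.15 ± 0.15 in siNT.

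Relatives of the family without an SLC25A symbol were read beside it. MTCH2, an insertase of the outer membrane with the carrier fold, fell to 4121 ± 77.5 in siTAZ, against 5441 ± 177 in siNT (log2 fold change -0.40, limma adjusted p = 1.1e-06), and MTCH1 fell to 5046 ± 142 in siTAZ, against 5711 ± 266 in siNT. The uncoupling protein UCP2 did not pass, at 3758 ± 182 in siTAZ and 3573 ± 155 in siNT. All 10 genes of the TIM22 import route, the small chaperones of the intermembrane space included, were called lower, with a median log2 fold change of -0.39. As background, a lower call was given to 27.5% of the whole tested set and a higher call to 28.3%. At means of at least 200 these shares were 34.5% and 32%. The same background applies to the mass markers below. AGK, a kinase that is also a TIM22 subunit, had 1261, 1248 and 1314 in siTAZ and 1930, 1917 and 1994 in siNT (log2 fold change -0.61, limma adjusted p = 3.1e-08). The chaperones TIMM13 and TIMM8B fell by 0.54 and 0.44 on the log2 scale. Of 14 genes chosen as markers of mitochondrial mass and biogenesis, 2 were higher and 10 lower, the median being -0.32. Among them HSPD1, the matrix chaperonin, fell to 21180 ± 954 in siTAZ, against 33010 ± 1509 in siNT, and TOMM40, the channel of the outer membrane translocase, and TOMM20, one of its receptors, fell by 0.63 and 0.48 on the log2 scale. The part of these markers in the falls of the carriers was not tested.

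Of 22 other transporters of the mitochondrial membranes, 3 were higher and 10 lower, the median log2 fold change being -0.10. The shares over all genes tested were 28.3% higher and 27.5% lower, and 32% and 34.5% where the mean was 200 or more. The pyruvate carrier subunit MPC2 rose to 2365 ± 80.0 in siTAZ, against 1423 ± 49.1 in siNT (limma adjusted p = 3.8e-09), while its partner MPC1, chosen after its value was seen, fell to 557 ± 40.9 in siTAZ, against 763 ± 49.5 in siNT. Of the sideroflexins, SFXN4 fell by 0.76 and SFXN5 rose by 0.57 on the log2 scale. Of 6 partners of the carnitine shuttle, 5 were higher and 0 lower, the median being 0.38, beside 28.3% called higher over all genes tested. SLC22A5, which takes up carnitine at the plasma membrane, had 472, 479 and 461 in siTAZ and 190, 214 and 201 in siNT (log2 fold change 1.22, limma adjusted p = 1.9e-09). CPT2, the inner membrane carnitine palmitoyltransferase, rose by 0.49 and CPT1C by 0.98 on the log2 scale.

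The enzymes on either side of the carriers were mixed, beside 28.3% called higher and 27.5% called lower over all genes tested. Of 14 shuttle enzymes, 4 were higher, 3 lower and 7 did not pass (median log2 fold change 0.03). IDH2 rose to 2394 ± 30.7 in siTAZ, against 1554 ± 78.2 in siNT, and GOT1 and ACLY, which act on cytosolic aspartate and on exported citrate, fell by 0.30 and 0.23 on the log2 scale. Of 9 urea cycle, ornithine and proline enzymes, 3 were higher, 2 lower and 4 did not pass (median 0.08). ARG2, mitochondrial arginase, fell by 0.87, whereas the proline enzymes ALDH18A1 and PRODH rose by 0.50 and 1.82 on the log2 scale. PRODH was low and rested on 78, 60 and 67 reads in siTAZ and 15, 21 and 12 reads in siNT. Of 11 genes of heme and iron-sulphur assembly, 4 were higher, 5 lower and 2 did not pass (median -0.01), and BOLA3, UROD and GLRX5 fell by 0.68, 0.55 and 0.54 on the log2 scale. Of 11 NAD, coenzyme A, thiamine and folate enzymes, 4 were higher and 7 lower (median -0.23). MTHFD2L, a mitochondrial folate enzyme, fell to 415 ± 5.40 in siTAZ, against 941 ± 16.2 in siNT, and TYMS and COASY fell by 0.52 and 0.54 on the log2 scale.

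**Figure D5:**
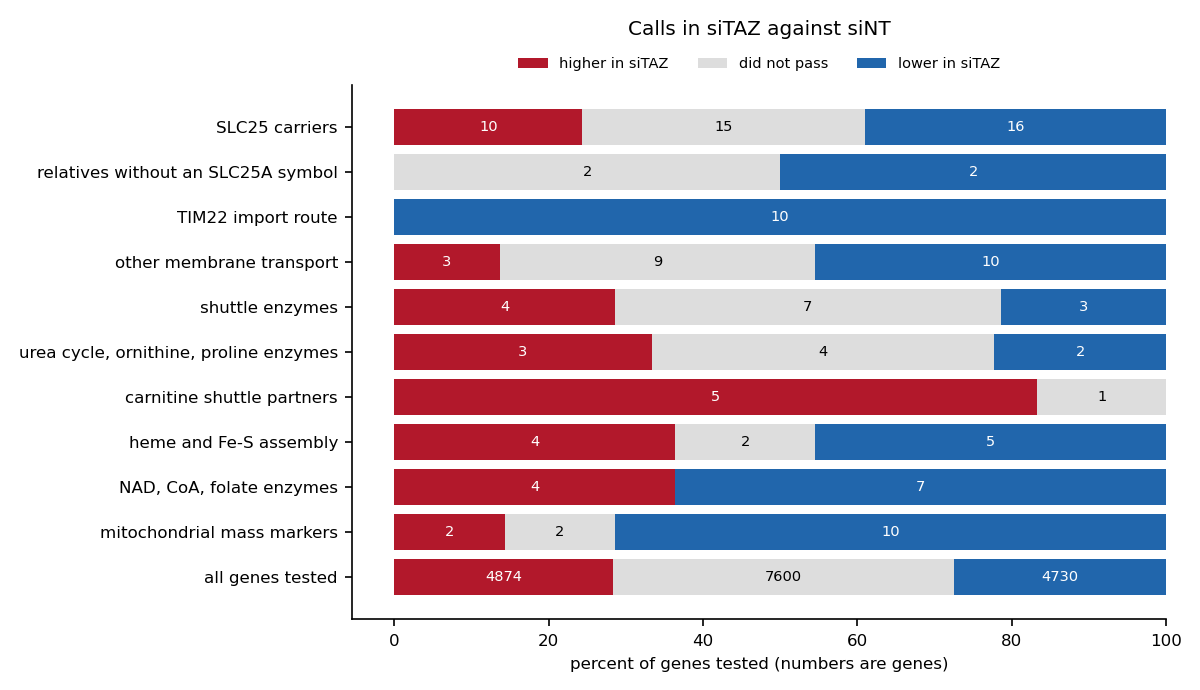
Each bar is a gene list, divided by the percent of its tested genes called higher in siTAZ (red), not passing (light grey) or called lower (blue), with gene numbers printed in the segments. The bottom bar holds all 17204 genes tested. The carriers stand at 10 higher, 15 not passing and 16 lower, the TIM22 import route at 10 lower, and the carnitine partners at 5 higher. CS is in both the shuttle enzymes and the mass markers.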

How the data were processed

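The submitters' processing notes name hg19, FastQC, HISAT2, HTSeq and DESeq2, while the sources used here give no version, annotation, strand setting or gene filter. The deposited values are a signal in reads divided by 1 size factor per library: within 0.001 of a read, 100% were whole multiples of the smallest value, and the whole reads were recovered from them. Identifiers were named from a table (16662 of 17211) and GENCODE 29 (81), with 468 unnamed. Transcript lengths are of the longest principal transcript in GENCODE 29.

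Limma 3.58.1 (R 4.3.3), with an intensity trend, was fitted to the log2 of each deposited value plus 1, for the 17204 genes whose mean reached 1, with group as the only term and Benjamini-Hochberg adjustment. Fold changes on this scale understate those of low genes. Because the values are normalized, edgeR 4.0.16, DESeq2 1.42.0 and voom on the recovered reads were alternatives, beside other pseudocounts, filters, scalings, a replicate block and leaving out each library. The models were also run on simulated counts, drawn independently with far fewer changed genes than were called here. That run therefore does not show how they behave on these data. Libraries of a group differed beyond sampling noise (chi-square per degree of freedom of 2.75 to 8.62). Members and lists were chosen with earlier results of these data known. Genes to show in every library were those called with an absolute log2 fold change of at least 0.5 and a mean of at least 10, the 5 most abundant carriers and paralogues called in opposite directions. Of each other list, up to 3 called genes with the smallest adjusted p are named. Values of 1 carrier called lower are not reported here. SLC25A1 and the genes named for overlap were added after their values were seen. SLC25A43, first grouped with the cofactor carriers, was moved to those without an established substrate after its value was seen.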

Additional observations from a re-analysis of the deposited data

How the results depend on the processing

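Without the added demand of a minimum fold, the count of carriers called ran from 9 to 12 higher and 15 to 17 lower over 17 alternatives, and no called carrier changed sign. Of the 26 called, 20 kept their call in every alternative run and 6 lost it in some (SLC25A15, SLC25A16, SLC25A21, SLC25A29, SLC25A35 and SLC25A40), and 5 of the 15 others were called in some. SLC25A21 lost its call only with the value of SLC25A21-AS1 added, a sum that had to lessen its rise. The count test, edgeR on the recovered reads, called 10 higher and 16 lower, all 26 shared with limma, and 9630 genes in all. Against a fold of 1.2, chosen after seeing the data, limma's treat called 4 carriers higher, 4 lower and 4417 genes in all (25.7%). Total count scaling moved the median log2 fold change of all genes to 0.05 and the split of calls to 57.9% higher, against 50.7%.

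Same-numbered libraries did not deviate together (correlations of -0.53, -0.30 and -0.09), so the numbers were not taken to pair them. Between differently numbered libraries the correlations ran from -0.37 (siTAZ replicate 3 with siNT replicate 2) to 0.47 (siTAZ replicate 1 with siNT replicate 2). With the replicate block, 9 carriers were higher, 16 lower and 8701 genes called in all. Leaving out 1 library gave 9 to 11 higher, 15 to 17 lower and 8540 to 9674 genes in all. SLC25A18 and SLC25A34, with at most 11 and 30 reads in a library, did not pass and had the widest SEs of the carriers (0.60 and 0.24 on the log2 scale).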
